A study of Mus musculus with 119 samples.

Results

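Endogenous opioid peptides are cut from larger precursor proteins and act on a family of G protein-coupled receptors. The genes described here were the 3 precursors Pdyn (prodynorphin), Penk (proenkephalin) and Pnoc (prepronociceptin) and the 4 receptors Oprm1 (mu), Oprd1 (delta), Oprk1 (kappa) and Oprl1 (nociceptin receptor). They were chosen by name, with earlier results of these data known, and all 7 were found among the 55291 genes of the count tables. The levels were read in every library, by brain region and by THC against vehicle.

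The study exposed adolescent mice to THC, the main psychoactive compound of cannabis, or to vehicle, and sequenced RNA of tissue punches from 5 regions: the prefrontal cortex (PFC), the dorsomedial striatum (DMS), the nucleus accumbens (NAc), the amygdala (Amy) and the ventral tegmental area (VTA). Female and male mice (C57BL/6J in the labels, C57BL/6NCrl in the methods of the study) received 10 mg/kg THC or vehicle by intraperitoneal injection each day from postnatal day 28 to 48, and behavioral tests began at postnatal day 63 after 2 weeks of abstinence, so that every group, vehicle included, had been injected and tested. Each of the 119 libraries came from 1 region of 1 mouse, with 6 libraries in each group of region, sex and treatment and 5 in the vehicle-treated male VTA. The labels also name the striatal punches dorsolateral and give the age as 11 weeks, whereas the name DMS used here follows the methods of the study.

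Enkephalins, the products of Penk, act mainly at the delta and mu receptors. Dynorphins, the products of Pdyn, act mainly at the kappa receptor, and nociceptin, the product of Pnoc, acts at its own receptor Oprl1 and not at the classical ones. In the striatum Pdyn is a classical marker of direct-pathway and Penk of indirect-pathway medium spiny neurons, and all 4 receptors couple to inhibitory G proteins that lower cyclic AMP and open potassium channels.

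The precursors differ in how many copies of the opioid core they encode. The core is the tetrapeptide tyrosine-glycine-glycine-phenylalanine at the start of every enkephalin and dynorphin. Its codons were searched in frame along the coding strand of every coding transcript of the GRCm38 annotation. Penk held 7 copies and Pdyn 3, whereas Pnoc held none. Of 22301 genes with a coding sequence, 73 (0.327%) held the core at least once and 4 (0.0179%) held at least 3 copies. These 4 were Penk, Pdyn, Krtap19-2 (5 copies) and Krtap19-4 (3 copies), so repeats of the core codons were not particular to the precursors. The codons of the nociceptin core, in which phenylalanine takes the place of the first tyrosine, were held by 109 genes (0.489%). The following lines give 27 bases around the first, sixth and seventh Penk copy, around each Pdyn copy and around the nociceptin core of Pnoc, to set the 3 precursors side by side. Capitals mark the core codons, and the bases are given 5′ to 3′ on the minus strand of GRCm38, on which all 3 genes lie.
Penk copy 1: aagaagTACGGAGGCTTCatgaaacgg
Penk copy 6: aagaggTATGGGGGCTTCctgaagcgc
Penk copy 7: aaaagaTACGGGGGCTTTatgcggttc
Pdyn copy 1: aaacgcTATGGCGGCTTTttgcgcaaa
Pdyn copy 2: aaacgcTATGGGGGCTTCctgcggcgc
Pdyn copy 3: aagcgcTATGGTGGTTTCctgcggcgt
Pnoc core: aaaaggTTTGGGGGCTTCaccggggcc
The codon after the core was atg (methionine) in Penk copies 1 and 7 and ctg (leucine) in copy 6, while every Pdyn copy had a leucine codon (ttg or ctg) there. In each line the core follows a pair of codons for lysine or arginine, the residues at which prohormone convertases cut. The 27 bases printed for Penk copy 1 lie at chr4:4134328-4134354 and those for Pdyn copy 1 at chr2:129688232-129688258. Those for Pnoc lie at chr14:65404872-65404898, and each stretch is within a single coding exon. The core itself takes up codons 100 to 103 in Penk copy 1, 166 to 169 in Pdyn copy 1 and 141 to 144 in Pnoc.

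The genes lie on 5 chromosomes of GRCm38. Pdyn (chr2:129686565-129699844) and Oprl1 (chr2:181715016-181720985) share chromosome 2, and Penk (chr4:4133531-4138819) and Oprd1 (chr4:132110726-132144486) share chromosome 4. Pnoc lies at chr14:65400673-65425472, Oprm1 at chr10:6758506-7038198 and Oprk1 at chr1:5588466-5606131. An antisense gene overlaps Penk (A830012C17Rik), and 2 overlap Oprm1 (Gm10945 and Ipcef1). Whether counting used the strand was not given in the sources used here, so reads of these overlapping genes may not be separated. Oprm1 has 31 annotated transcripts, and its counts are sums over them.

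Total counts ran from 3090998 to 77042133 per library, with a median of 22092612, and all libraries had counts of every member but few of some: Pnoc had 4 to 126 counts in the DMS libraries (median 11.5), Oprm1 had 18 to 48 in the PFC and Pdyn had 9 to 152 in the VTA. Sex-linked transcripts matched the labelled sex in 117 of 119 libraries. The exceptions were 1 library labelled female Amy THC (FTL_344) and 1 labelled male Amy THC (FTL_356), and the Pnoc and Oprl1 changes of the Amy are also given without them. A further 6 libraries, picked after the data were seen because a member's level lay far from the rest of their group, also had summed markers of other cells outside their group's range, and are named where they touch a result. The VTA library FTL_376 met the same description but was not among these 6. The labelled regions carried their markers: summed over the list, dopaminergic neuron genes averaged 4111 CPM in the VTA, the medium spiny neuron list averaged 8083 CPM (DMS) and 3354 CPM (NAc), and the projection neuron list averaged 2584 CPM in the PFC, all in vehicle-treated mice.

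The 7 genes had different regional orders. Levels are in CPM, counts scaled to library size with TMM normalisation, in vehicle-treated mice, given as the mean ± SD over 12 libraries (11 in the VTA), and regions were tested with edgeR's quasi-likelihood test with sex as a covariate and Benjamini-Hochberg adjustment over 18332 genes. A gene was called between regions at an adjusted p under 0.05 and a log2 difference of at least 1. The regions were punched from the same brains according to the methods of the study, but the labels do not say which libraries share a mouse, so the tests treat regions as independent. PFC and DMS libraries also came in another count table than the rest, and any difference between the tables is part of the difference between regions.

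Pdyn was highest in the NAc, at 252.3 ± 39.3 CPM (range 162.1 to 308.4). Next came the Amy at 92.6 ± 23.5 CPM and the DMS at 91.1 ± 17.4 CPM, which did not differ beyond their spread (log2 difference of DMS minus Amy 0.05, 95% interval -0.16 to 0.27, adjusted p = 0.679). The PFC had 18.9 ± 2.32 CPM and the VTA 1.83 ± 0.537 CPM. No vehicle-treated NAc library reached down to a library of another region, and the NAc exceeded the VTA by 7.22 ± 0.16 (SE) on the log2 scale (adjusted p = 4.09e-42), the widest regional difference of the 7 genes.

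Penk was highest in the DMS, at 1732 ± 261.6 CPM (range 1180 to 2145), above the NAc at 858.5 ± 115 CPM by 1.04 ± 0.14 on the log2 scale (adjusted p = 1.05e-08). The Amy had 424 ± 119 CPM, the VTA 39.6 ± 6.85 CPM and the PFC 30.1 ± 16.5 CPM. In the PFC 1 vehicle-treated female library (FTL_264) had 81.6 CPM of Penk, and the others lay between 18.2 and 29.7 CPM. That library also had 53.86 CPM of summed indirect-pathway medium spiny neuron markers, against 12.24 to 15.87 CPM in the rest of its group, and its part in the Penk level was not tested. Without it the PFC mean was 25.4 ± 3.04 CPM. In the Amy the vehicle-treated male library FTL_346 had 703.2 CPM of Penk and 1479 CPM of summed medium spiny neuron markers, against 690.5 to 907.5 CPM of these markers in the rest of its group. Without it and the female library FTL_338, which had 1449 CPM of summed astrocyte markers against 2269 to 2515 CPM in the rest of its group, the Amy mean was 401.1 ± 89.0 CPM. Penk in the VTA and PFC differed by 0.41 ± 0.16 on the log2 scale (adjusted p = 0.0152), too little to be called.

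Pnoc had another order from the classical precursors, with the Amy first at 22.9 ± 4.43 CPM (range 13.6 to 28.3). It was called higher in the Amy than in the VTA, at 9.97 ± 1.71 CPM (log2 difference 1.16 ± 0.25, adjusted p = 4.79e-05). The NAc had 6.78 ± 2.15 CPM and the PFC 4.35 ± 0.455 CPM, and the ranges of these neighbours overlapped. In the DMS the mean was 1.51 ± 2.15 CPM, but the median was 0.399 CPM, because 2 vehicle-treated libraries stood far above the rest: female library FTL_285 had 5.28 CPM and male library FTL_301 had 6.56 CPM. Library FTL_285 had 281.1 CPM of summed projection neuron markers against 6.004 to 7.191 CPM in the rest of its group, and library FTL_301 had 5621 CPM of summed medium spiny neuron markers against 6990 to 8615 CPM. The part of these markers in the Pnoc levels was not tested. Without both libraries Pnoc in the DMS was 0.623 ± 0.617 CPM.

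Among the receptors, Oprm1, the main target of morphine, was highest in the NAc at 9.01 ± 1.46 CPM and in the Amy at 5.75 ± 1.75 CPM. Lower levels were found in the VTA (3.19 ± 0.745 CPM), the DMS (2.44 ± 0.601 CPM) and the PFC (1.37 ± 0.363 CPM). The VTA and DMS did not differ at the threshold (adjusted p = 0.0503). The NAc exceeded the PFC by 2.74 ± 0.17 on the log2 scale (adjusted p = 3.17e-22), with no overlap between their libraries.

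Oprd1 was highest in the DMS (28.3 ± 5.05 CPM) and the PFC (24.9 ± 2.18 CPM), which did not differ at the threshold (adjusted p = 0.0601). The NAc (17.5 ± 2.18 CPM) and the Amy (16.1 ± 4.38 CPM) also lay within each other's spread (adjusted p = 0.217), and the VTA was lowest at 5.11 ± 1.14 CPM. Oprd1 was the member with the greatest excess of the PFC over the VTA after Pdyn, 2.33 ± 0.13 on the log2 scale (adjusted p = 2.02e-23).

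Oprk1 was highest in the DMS (56.7 ± 8.25 CPM) and the NAc (51.8 ± 6.60 CPM), with an adjusted p of 0.217 between them and a 95% interval of -0.06 to 0.37 for their log2 difference. The VTA (33.4 ± 8.10 CPM) and the Amy (30.2 ± 5.24 CPM) followed, also without a difference at the threshold (adjusted p = 0.112). The PFC was lowest at 17.5 ± 4.35 CPM.

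Oprl1 followed the order of its own ligand precursor in the Amy and VTA. It was highest in the Amy (86.0 ± 8.43 CPM) and the VTA (77.4 ± 6.53 CPM, adjusted p = 0.0597). The NAc (54.3 ± 6.79 CPM) and PFC (53.4 ± 3.27 CPM) were level within a 95% interval of -0.16 to 0.07 for PFC minus NAc on the log2 scale. The DMS was lowest at 27.0 ± 3.69 CPM, with every library below every library of the PFC. Its coefficient of variation over vehicle-treated libraries ran from 6.13% in the PFC to 13.7% in the DMS, the lowest of the 7 genes in every region but the NAc, where that of Oprd1 was lower.

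**Figure D1:**
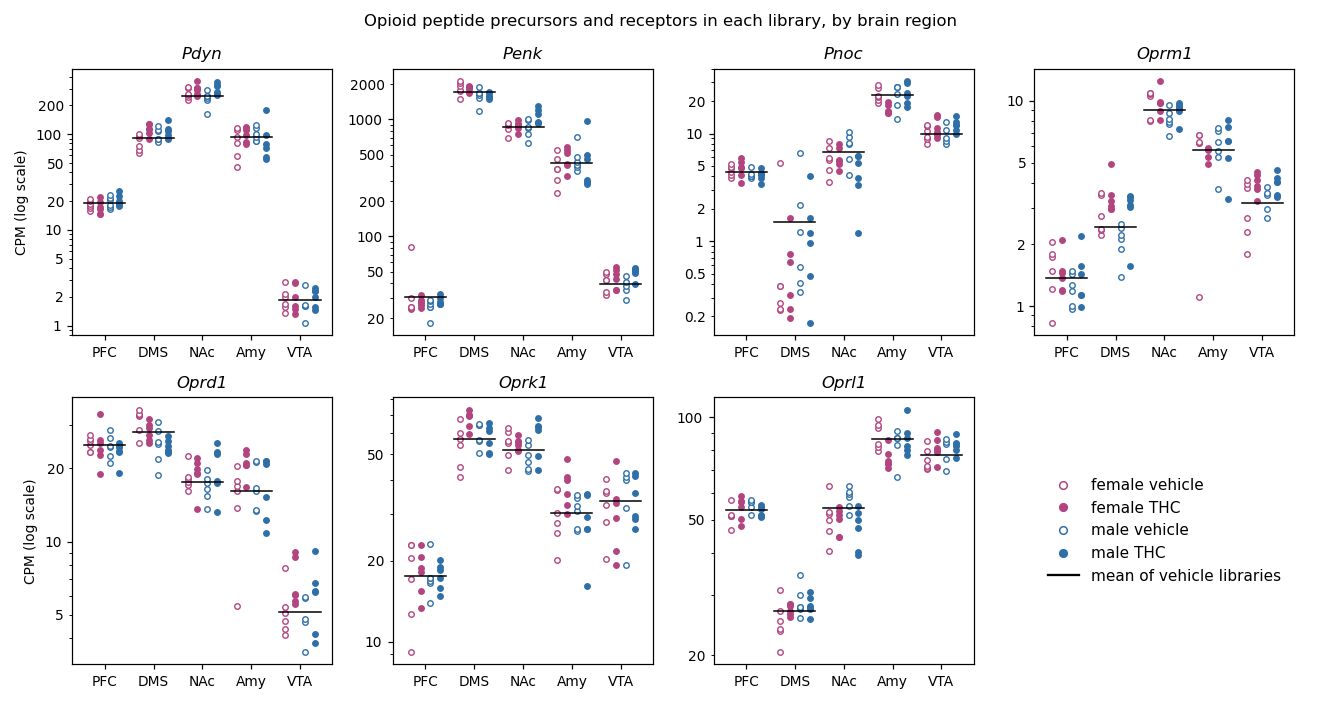
Level of each gene in each of the 119 libraries, in CPM on a log scale that differs between panels, by region, with open points for vehicle, filled points for THC, and a line at the mean of the vehicle libraries. Pdyn is highest in the NAc, Penk in the DMS and Pnoc and Oprl1 in the Amy, and single DMS libraries stand apart for Pnoc.

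Counted over the 10 pairs of regions, 40 of 70 member comparisons were called. Pdyn and Penk were called in 9 pairs each, Pnoc in 8, Oprm1 in 6, Oprd1 in 4, and Oprk1 and Oprl1 in 2 each. The PFC differed in 4 members from the DMS (21.0% of all genes called), in 4 from the NAc (18.1%), in 4 from the Amy (14.0%) and in 4 from the VTA (26.6%). The DMS differed in 4 members from the NAc (10.3%), in 4 from the Amy (18.0%) and in 5 from the VTA (28.4%). Finally, 3 members were called between the NAc and Amy (8.31%), 4 between the NAc and VTA (22.5%) and 4 between the Amy and VTA (17.8%). In all 10 pairs the share of members called was above the share of all genes. Leaving out the vehicle libraries FTL_264, FTL_285, FTL_301, FTL_338 and FTL_346 changed the count in 2 of these pairs, to 5 members for the PFC against the DMS and 5 for the DMS against the NAc.

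Levels of different genes were compared per kilobase of annotated exon. On this scale Penk had the highest mean of the 7 genes in each region, from 1060 CPM per kb in the DMS to 18.4 CPM per kb in the PFC. Oprm1 had the lowest mean in each region, from 0.170 in the PFC to 1.12 CPM per kb in the NAc. Its annotated exons cover 8037 bases over 31 transcripts, against 2157 for Pnoc and 2887 for Pdyn. In CPM Oprm1 lay above Pnoc in the DMS and NAc and above Pdyn in the VTA. Its last place in these regions therefore depends on the exon length used. In the DMS the place of Oprm1 below Pnoc depends on the mean. The Pnoc mean there, 0.698 ± 0.998 CPM per kb, was raised by FTL_285 and FTL_301. The lowest DMS library had 0.106 CPM per kb for Pnoc and 0.173 for Oprm1. Pdyn was second in the DMS, NAc and Amy but sixth in the VTA, at 0.635 CPM per kb. Oprl1 had the highest mean of the receptors in every region, from 7.19 CPM per kb in the DMS to 22.9 in the Amy. In the DMS Oprl1 (7.19 ± 0.983), Oprd1 (7.03 ± 1.26) and Oprk1 (6.19 ± 0.901) lay within each other's spread. Without FTL_285 and FTL_301 the DMS mean of Oprd1 was 29.5 in place of 28.3 CPM. That of Oprl1 was 25.85 in place of 27.0 CPM, so their order there is not settled. The per-kilobase ratio of Penk to Pdyn in vehicle-treated mice averaged 6.06 ± 0.555 in the NAc and 8.21 ± 1.42 in the Amy. It was 35.4 ± 11.0 in the DMS, 41.9 ± 16.6 in the VTA and 2.81 ± 1.36 in the PFC (range 1.39 to 6.85, the highest in library FTL_264).

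**Figure D2:**
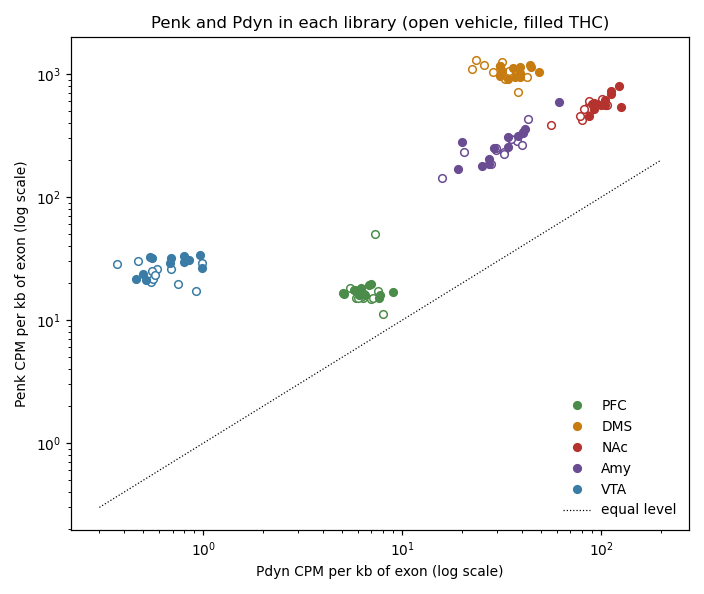
Penk against Pdyn in each library, both in CPM per kb of exon on log scales, by region, with open points for vehicle, filled points for THC and a dotted line of equal level. All libraries lie above the line, the DMS and VTA farthest from it, and 1 PFC library stands above the others in Penk.

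THC against vehicle was tested in each region and sex with edgeR's quasi-likelihood test, adjusted over all genes, and a gene was called at an adjusted p under 0.05 and a log2 fold change of at least 0.4 in size. The members passed the filter on low counts in 69 of 70 tests, the exception being Pnoc in the female DMS. One member was called in 1 comparison: Pnoc was lower after THC in the female Amy. Of all genes, 1.57% were called there, 0.0127% in the female DMS and 0.0% in each of the other 8 groups. No member was called in an interaction of sex and treatment, where 0.0059% of all genes were called in the Amy and 0.0% elsewhere, or over both sexes, where no gene was. Unadjusted p-values were under 0.05 in 15 of the 69 tests (21.7%), against 8.15% over all genes in the same 10 comparisons. The comparisons within a region and sex share libraries between members, so these tests are not independent of each other. In none of the 70 was every THC library on one side of every vehicle library, a pattern found in 4.04% of all genes in the female Amy and in 0.0982% to 0.807% in the other groups.

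**Figure D3:**
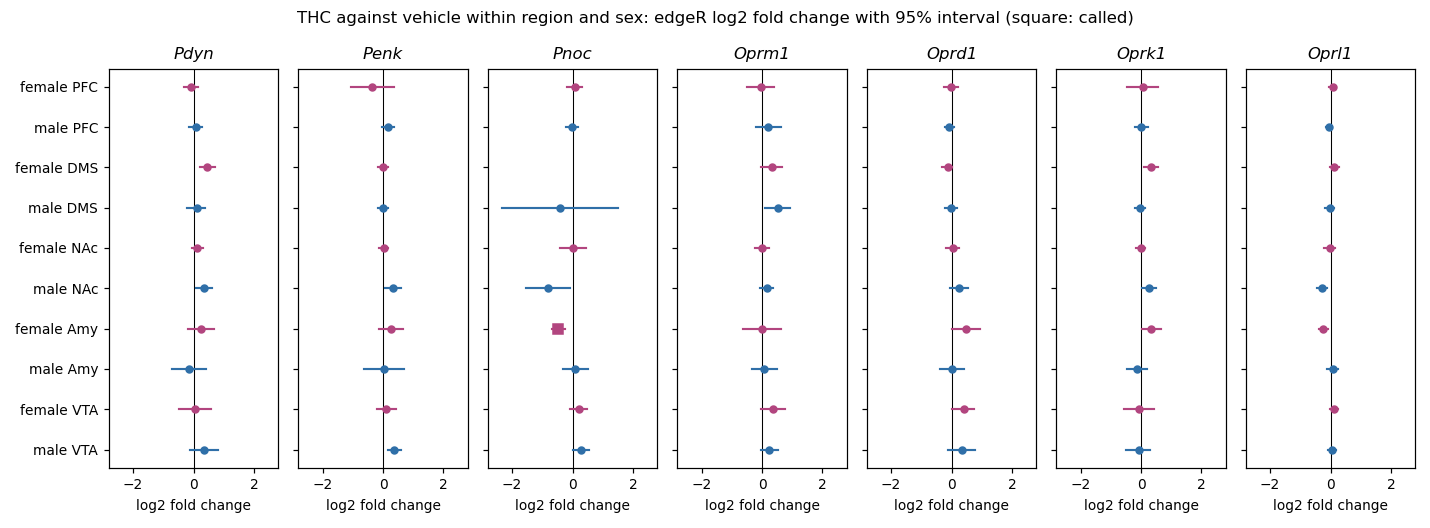
Log2 fold change of THC over vehicle for each gene (panels) in each region and sex (rows), with the 95% interval from edgeR as a bar and a square for the called result. The square marks Pnoc in the female Amy at -0.47, and the interval for Pnoc in the male DMS is the widest.

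In the female Amy, Pnoc had levels of 15.6, 15.7, 15.7, 16.3, 18.6 and 19.6 CPM after THC and 19.4, 20.4, 21.8, 22.3, 26.3 and 28.3 CPM after vehicle. The groups met only at their edges, where the highest THC library lay just above the lowest vehicle library. The mean was 16.9 ± 1.75 CPM against 23.1 ± 3.50 CPM (n = 6 each), a log2 fold change of -0.47 ± 0.10 (SE, 95% interval -0.69 to -0.26, edgeR adjusted p = 0.0283). In this comparison 0.476% of all genes were called lower, against 1 of 7 members, and the median size of the log2 fold change was 0.27 over members and 0.131 over all genes. Without FTL_344, the library labelled female whose sex-linked counts were male, the change was -0.50 (adjusted p = 0.0483, with 0.935% of all genes called). Leaving out any of 5 libraries (FTL_333, FTL_335, FTL_339, FTL_340 or FTL_342) raised the adjusted p to between 0.0618 and 0.0842. The vehicle library FTL_338, the one with few astrocyte markers, carried the highest Pnoc level, and without it the change was -0.40 (adjusted p = 0.0146), just under the threshold of size. With all 4 Amy groups in 1 fit the adjusted p was 0.104.

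A further 3 members had unadjusted p-values under 0.05 in the female Amy, where 21.9% of all genes did, but none was called. Oprl1 ranged from 70.8 to 85.8 CPM (median 73.9) after THC and from 79.3 to 98.8 CPM (median 88.2) after vehicle, so most THC libraries lay below the vehicle range. Its log2 fold change was -0.24 ± 0.07 (edgeR adjusted p = 0.0792), and -0.23 (adjusted p = 0.152) without FTL_344. Oprd1 was 20.96 ± 2.45 CPM against 15.1 ± 5.20 CPM (log2 fold change 0.48 ± 0.22, adjusted p = 0.227). The lowest vehicle library, at 5.45 CPM, was FTL_338, and without it the change was 0.30 ± 0.10 (adjusted p = 0.0837). Oprk1 was 37.8 ± 6.56 CPM against 29.6 ± 6.63 CPM (0.34 ± 0.14, adjusted p = 0.186), and FTL_338 was again the lowest, with a change of 0.26 (adjusted p = 0.288) without it. For Pdyn the log2 fold change was 0.25 with an interval of -0.19 to 0.69, for Penk 0.27 (-0.13 to 0.67) and for Oprm1 -0.01 (-0.64 to 0.63). Oprm1 was also lowest in FTL_338, and without that library its change was -0.23 ± 0.08 (adjusted p = 0.108).

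Markers of other cells moved with the female Amy groups. All 8 projection neuron markers of cortex and basolateral amygdala were higher after THC, 4 of them called (Neurod6, Rspo2, Slc17a7 and Tbr1), with a summed level of 854.5 to 1200 CPM against 520.8 to 789.0 CPM and no overlap. Of 10 markers of hypothalamus and medial amygdala 8 passed the filter and all 8 were lower, 1 of them called (Lhx5), with a summed level of 10.65 to 18.62 CPM against 18.22 to 40.0 CPM. Among markers of other lists, Lhx6 was called lower without FTL_338 (-0.52, edgeR adjusted p = 0.00842) and without FTL_344 (-0.51, adjusted p = 0.0415). Nr4a2 was called higher in both of these fits (0.56 and 0.63). Th was called lower without FTL_338 (-0.69) but not without FTL_344 (-0.63, adjusted p = 0.052). Bcl11b was called in neither (0.35 and 0.41). The sums for medium spiny neuron markers of both pathways were 834.3 to 1166 CPM against 480.6 to 860.4 CPM. The direct-pathway list was level, at 77.18 to 100.9 CPM against 82.92 to 105.1 CPM. The indirect-pathway list summed to 108.3 to 197.1 CPM against 60.68 to 140.5 CPM. Choroid plexus markers summed to 17.74 to 3611 CPM after THC and 17.23 to 1131 CPM after vehicle, and oligodendrocyte markers to 2585 to 4532 CPM and 2381 to 7661 CPM. Of the hypothalamic markers 3 were at 0 in at least 1 THC library and 1 in at least 1 vehicle library. Median depth also differed, at 44472649.5 counts after THC and 26933795.5 after vehicle, and with depth as a covariate Pnoc fell by 0.59 on the log2 scale (adjusted p = 0.0273). The part of the markers in the Pnoc difference was not tested. In bulk tissue, fewer cells of a type and less RNA per cell cannot be told apart.

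In the male Amy no member had an unadjusted p under 0.05, as 1.83% of all genes did, and none of all genes was called (0.0%). Pnoc was 23.8 ± 5.34 CPM after THC and 22.7 ± 5.55 CPM after vehicle (log2 fold change 0.09, interval -0.31 to 0.50), and the change was 0.12 without FTL_356, the library labelled male whose sex-linked counts were female. For Oprl1 it was 0.07, and 0.09 without FTL_356. The difference between the sexes in the effect on Pnoc, the interaction term, was 0.56 ± 0.22 (edgeR adjusted p = 0.261), and for Oprl1 it was 0.31 ± 0.11 (adjusted p = 0.256). Without the 2 libraries that went against their labelled sex the adjusted p was 0.221 for each. Neither passed the adjustment, so the effects are not shown to differ between sexes. The male THC library FTL_352 had 178.1 CPM of Pdyn and 970.2 CPM of Penk, with 2232 CPM of summed medium spiny neuron markers against 468.6 to 934.2 CPM in the rest of its group.

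**Figure D4:**
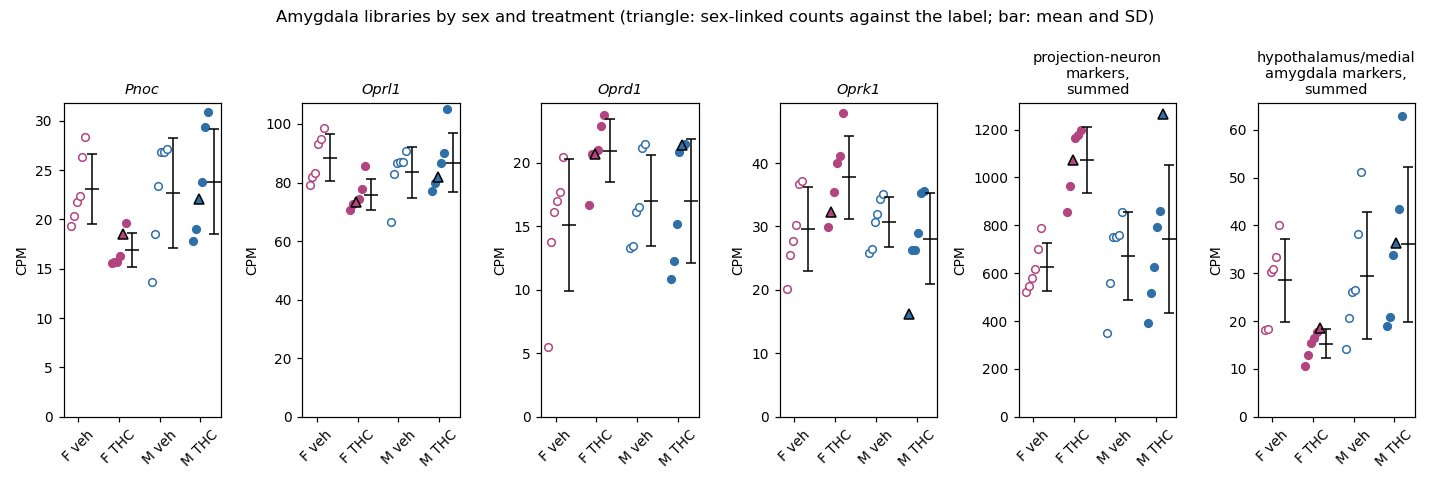
Pnoc, Oprl1, Oprd1, Oprk1 and the summed levels of 2 marker lists in the Amy libraries, in CPM, by sex and treatment, with the mean and SD as bars and triangles for the 2 libraries whose sex-linked counts go against their label. Female THC libraries are low for Pnoc and for the hypothalamic list and high for the projection neuron list.

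In the male NAc 5 of 7 members had unadjusted p-values under 0.05, where 16.7% of all genes did and none was called (0.0%). Both striatal precursors lay higher after THC: Pdyn was 300.1 ± 38.5 CPM against 237.0 ± 43.0 CPM (log2 fold change 0.34 ± 0.12, edgeR adjusted p = 0.221). Penk was 1075 ± 158 CPM against 849.9 ± 144 CPM (0.34 ± 0.12, adjusted p = 0.216). Penk ranged from 932.3 to 1306 CPM (median 1037) after THC and from 631.7 to 1018 CPM (median 858.3) after vehicle. Pdyn ranged from 258.4 to 353.7 CPM (median 299.6) and from 162.1 to 292.7 CPM (median 244.2). Both pairs of ranges overlapped. Oprk1 was 58.3 ± 9.56 CPM against 49.0 ± 5.29 CPM (0.25 ± 0.11, adjusted p = 0.264).

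The nociceptin pair lay lower in the same libraries. Pnoc was 4.36 ± 1.96 CPM after THC, with a range of 1.19 to 6.24 CPM, and 7.60 ± 2.27 CPM after vehicle, with a range of 4.10 to 10.2 CPM (log2 fold change -0.82 ± 0.34, edgeR adjusted p = 0.262). Oprl1 was 47.3 ± 6.37 CPM against 57.9 ± 3.96 CPM (-0.29 ± 0.08, adjusted p = 0.210). All 7 medium spiny neuron markers lay higher after THC in this comparison, with a sum of 3103 to 4867 CPM against 2500 to 3515 CPM, and the hypothalamic list summed to 9.83 to 14.2 CPM against 12.37 to 29.54 CPM. Their part in the member levels was not tested. In the female NAc no member had an unadjusted p under 0.05 (4.61% of all genes did), and the largest change was that of Pdyn, 0.13 with an interval of -0.06 to 0.33. The interaction terms of the NAc had adjusted p-values of at least 0.443 for every member.

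In the female DMS, where 8.89% of all genes had an unadjusted p under 0.05 and 0.0127% were called, Pdyn and Oprk1, a ligand precursor and its receptor, both did. Pdyn ranged from 89.97 to 128.0 CPM (median 113.0) after THC and from 64.3 to 99.4 CPM (median 83.0) after vehicle, so that only the lowest THC library lay within the vehicle range. The log2 fold change was 0.46 ± 0.12 (edgeR adjusted p = 0.281). DESeq2, the tool that the study used with these same thresholds, called Pdyn, with the same fold change and an adjusted p of 0.0121. Oprk1 was 67.6 ± 5.06 CPM against 54.0 ± 9.90 CPM (0.33 ± 0.11, edgeR adjusted p = 0.354). The summed medium spiny neuron markers were 8219 ± 342.8 CPM after THC and 8626 ± 722.3 CPM after vehicle. In males Pdyn was 106.6 ± 19.1 CPM against 100.1 ± 15.8 CPM (0.10, interval -0.20 to 0.39). The interaction was -0.36 ± 0.19 for Pdyn (adjusted p = 0.852) and -0.37 ± 0.14 for Oprk1 (adjusted p = 0.767).

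In the male DMS Oprm1 alone of the members had an unadjusted p under 0.05, as 1.93% of all genes did. It ranged from 1.56 to 3.43 CPM (median 3.20) after THC and from 1.39 to 2.50 CPM (median 2.17) after vehicle (log2 fold change 0.52 ± 0.19, edgeR adjusted p = 1.0). All but 1 of the THC libraries lay above every vehicle library. In females Oprm1 was 3.44 ± 0.741 CPM against 2.78 ± 0.587 CPM (0.32 ± 0.16, adjusted p = 0.603). Over both sexes the Oprm1 change in the DMS was 0.42 ± 0.13 (edgeR adjusted p = 0.918), and that of Pdyn was 0.28 ± 0.10 (adjusted p = 0.918), where 4.88% of all genes had an unadjusted p under 0.05. Penk was level in this region, with a log2 fold change of 0.00 in each sex and intervals of -0.15 to 0.15 in females and -0.18 to 0.18 in males.

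In the VTA the precursor Penk was 49.5 ± 5.47 CPM after THC and 37.7 ± 6.64 CPM after vehicle in males (0.37 ± 0.10, edgeR adjusted p = 0.819, 5.92% of all genes with an unadjusted p under 0.05). Pnoc was 12.04 ± 1.62 CPM against 9.83 ± 2.00 CPM in males (0.28 ± 0.13, adjusted p = 0.819). The methods of the study removed a male VTA sample as an outlier without naming it, whereas all male VTA libraries were kept here. The male vehicle libraries include FTL_371, which had the fewest counts of all libraries (3090998). It was the lowest of its group for Penk (28.4 CPM) and Pnoc (7.99 CPM) and the highest for Oprd1 (5.92 CPM). In females Oprd1 was 6.85 ± 1.59 CPM against 5.25 ± 1.33 CPM (0.40 ± 0.17, adjusted p = 0.522), where 9.03% of all genes had an unadjusted p under 0.05. In the female VTA the summed dopaminergic markers were 1591 to 4675 CPM after THC against 3338 to 4877 CPM, microglial markers 147.5 to 226.3 CPM against 199.1 to 246.1 CPM, and projection neuron markers 6.152 to 87.92 CPM against 14.64 to 95.76 CPM. In the male VTA the projection neuron list summed to 7.745 to 153.1 CPM against 6.223 to 59.19 CPM, with the highest sum in FTL_376, the library with the lowest Penk of its group. The part of these markers in the member levels was not tested. Over both sexes Oprd1 (0.37 ± 0.14), Oprm1 (0.30 ± 0.12), Pnoc (0.24 ± 0.10) and Penk (0.24 ± 0.09) had unadjusted p-values of 0.0137 to 0.021, and adjusted p-values of 0.415 to 0.442. No VTA interaction term had an adjusted p under 0.829 among the members.

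The PFC was the one region where no member had an unadjusted p under 0.05 in either sex, against 5.84% of all genes in females and 4.07% in males. For Oprl1 the intervals were narrow, from -0.05 to 0.18 in females and from -0.14 to 0.01 in males. For Penk in females the interval was -1.07 to 0.36, with library FTL_264 among the vehicle libraries.

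Between the sexes, with treatment as a covariate, no member was called in any region. In the DMS, where 2.64% of all genes were called, Penk differed by -0.20 ± 0.06 (edgeR adjusted p = 0.0302) and Oprd1 by -0.24 ± 0.06 (adjusted p = 0.0197) on the log2 scale, male minus female, both short of a size of 0.4. Penk averaged 1606 ± 243 CPM in vehicle-treated males and 1858 ± 231 CPM in vehicle-treated females, and Oprd1 averaged 25.2 ± 4.47 CPM and 31.4 ± 3.61 CPM. The summed medium spiny neuron markers also lay lower in males, at 7540 ± 1124 CPM against 8626 ± 722.3 CPM after vehicle and 7625 ± 397.7 CPM against 8219 ± 342.8 CPM after THC, and their part in the difference was not tested. Without the DMS libraries FTL_285 and FTL_301 the differences were -0.19 for Penk and -0.23 for Oprd1. All genes called in the other regions were 0.237% (PFC), 0.25% (NAc), 0.0118% (Amy) and 0.113% (VTA). In the other regions the adjusted p of the sex difference was at least 0.183 for each member. The Amy comparison keeps FTL_344 and FTL_356 under their labelled sex, and without them 0.0822% of all genes and no member were called there.

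Within regions, some members were related across libraries. The log2 CPM of each pair of members was compared after subtracting the mean of each library's own group, with 100000 permutations within groups and adjustment over the 105 pairs of all regions. Of these, 24 had an adjusted p under 0.05: 9 were found in the DMS, 6 each in the NAc and Amy, 3 in the VTA and none in the PFC, 12 positive and 12 negative. The share among pairs of other genes was not computed, so the count does not set the members apart from other genes. Pdyn and Penk rose and fell together in the NAc (r = 0.84, rho = 0.82, n = 24, permutation p = 1e-05, the smallest the permutations can give, adjusted p = 0.00105) and in the Amy (r = 0.84, rho = 0.81, permutation p = 4e-05, adjusted p = 0.0021). Without the 2 libraries farthest from the median of Pdyn r was 0.75 and 0.71.

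Pnoc ran against Penk in the NAc, Amy and DMS and with it in the VTA, while in the PFC r was 0.09 (permutation adjusted p = 0.862). In the NAc r was -0.64 (rho = -0.65, permutation adjusted p = 0.0112), in the Amy -0.66 (rho = -0.70, adjusted p = 0.0112) and in the DMS -0.69 (rho = -0.48, adjusted p = 0.0132). In the VTA it was 0.72 (rho = 0.69, n = 23, adjusted p = 0.0112). Without the 2 libraries farthest from the median of Penk these values were -0.64, -0.52, -0.40 and 0.72. In the NAc the receptors Oprk1 and Oprl1 ran against each other (r = -0.71, rho = -0.68, permutation adjusted p = 0.0112, and -0.63 without the 2 farthest libraries). The DMS relations rested on few libraries: without FTL_285 and FTL_301, 1 of its 9 relations kept an adjusted p under 0.05, Pdyn against Oprd1 at r = -0.60, and that of Penk and Pnoc was -0.33 (adjusted p = 0.282). In the Amy, without 5 libraries that stood apart or went against their labelled sex, 1 of 6 remained, Pdyn with Penk at r = 0.89, that of Penk and Pnoc was -0.49 (adjusted p = 0.181), and 2 others came under the threshold, Oprd1 with Oprk1 at r = 0.78 and Penk with Oprk1 at r = 0.66. With Spearman's rho 11 Amy pairs had an adjusted p under 0.05 in place of 6. In the PFC, without FTL_264, 1 relation came under the threshold, Pdyn against Oprk1 at r = -0.57. No library was removed from the NAc or VTA, so the VTA relations keep FTL_371 and FTL_376 and were not put to the same check.

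**Figure D5:**
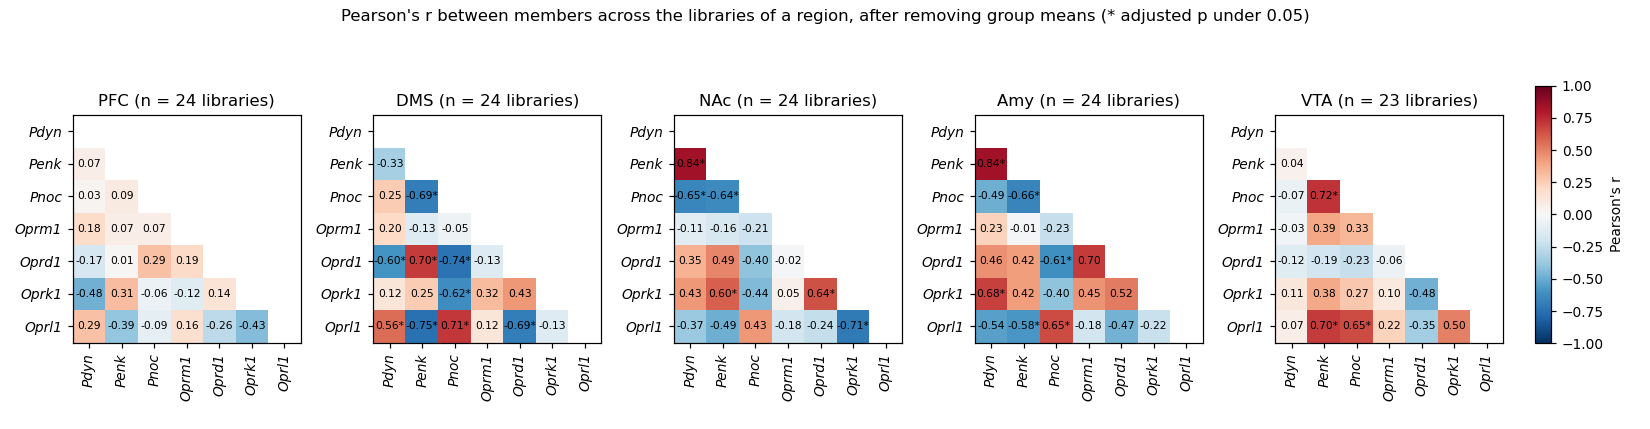
Pearson's r between members across the libraries of each region after removing group means, with red for positive, blue for negative and an asterisk for an adjusted permutation p under 0.05. Pdyn and Penk are at 0.84 in both the NAc and the Amy, and no pair of the PFC carries an asterisk.

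The same residuals were set against the summed levels of 3 marker lists, and 36 of 105 relations had an adjusted p under 0.05. The share over other genes was not computed here either. Summed medium spiny neuron markers ran with Oprk1 in the NAc (r = 0.92, rho = 0.92, permutation adjusted p = 0.000263), with Oprd1 in the DMS (r = 0.91, rho = 0.86, adjusted p = 0.000263), and with Penk (r = 0.90, rho = 0.84) and Pdyn (r = 0.86, rho = 0.89) in the Amy, each with an adjusted p of 0.000263. Without the 2 libraries farthest from the median of the list, r was 0.88, 0.85, 0.81 and 0.82. Pdyn ran against these markers in the DMS (r = -0.57, rho = -0.77, permutation adjusted p = 0.012, and r = -0.64 without the 2 farthest). Pnoc in the Amy ran with the hypothalamus and medial amygdala list (r = 0.79, rho = 0.79, permutation adjusted p = 0.00219, and 0.70 without the 2 farthest) and against the medium spiny neuron list (r = -0.75, rho = -0.81, adjusted p = 0.00042, and -0.68 without the 2 farthest). Oprl1 in the Amy also ran with the hypothalamic list (r = 0.74, rho = 0.67, permutation adjusted p = 0.00242, and 0.66 without the 2 farthest).

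The other genes of the pathway were taken as 5 lists of 39 genes in all, of which 37 to 39 passed the filter in each THC comparison. In the 10 THC comparisons, calls were made only in the female Amy, 2 higher and 1 lower of 39 tested, where 1.09% of all genes were called higher and 0.476% lower. The peptide-processing enzyme Pcsk2 (prohormone convertase 2) was higher, with a log2 fold change of 0.61 (edgeR adjusted p = 0.00719), as 1 of 6 precursor and processing genes. Of 10 G protein and adenylyl cyclase genes, Adcy1 was higher by 0.74 (adjusted p = 0.0319) and Adcy8 lower at -0.44 (adjusted p = 0.0373), both enzymes that make cyclic AMP. Without FTL_344 Pcsk2 was still called, while Adcy1 (adjusted p = 0.0604) and Adcy8 (adjusted p = 0.071) were not. Without FTL_338 Pcsk2 (0.56, edgeR adjusted p = 0.00243), Adcy1 (0.60, adjusted p = 0.00197) and Adcy8 (-0.41, adjusted p = 0.034) were all called. None of 6 peptide breakdown genes, 11 receptor kinases, arrestins and RGS proteins or 6 effector channels was called there. The median log2 fold changes of the 5 lists were -0.07, 0.06, 0.04, 0.03 and 0.17 in that order, and the median over all genes was -0.00569. Between the sexes, Pcsk1 (prohormone convertase 1, -0.49, adjusted p = 0.00153) and Ace (a peptide-cleaving enzyme, -0.47, adjusted p = 0.0298) were lower in males in the DMS, as 2 of 38 tested, where 0.47% of all genes were called lower. Both were also called without FTL_285 and FTL_301.

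Among 18332 genes, those whose mean log2 CPM over the 10 vehicle groups was most like that of a member were, with Pearson's r as a description over points that share regions, G630016G05Rik (0.997), Edc3 and Fbxo46 for Pdyn, and Rxrg (0.997), Slc30a10 and Fkbp5 for Penk. For Pnoc they were Gng4 (0.995), Tmx4 and Sh2b2, and for Oprm1 N4bp1 (0.99), Col7a1 and Bahcc1. For the other receptors they were Plcb1 (0.997), Josd1 and Rbfox1 for Oprd1, Rapsn (0.989), Pttg1ip and Pard3 for Oprk1, and Slc1a6 (0.995), Adra2a and Glra3 for Oprl1. Among the members themselves the most alike over these groups were Pnoc and its receptor gene Oprl1 (r = 0.98), followed by Penk and Oprk1 (0.84) and Pdyn and Penk (0.81), and the least alike were Oprd1 and Oprl1 (-0.67). Some of the named genes depended on the choice of groups or measure: with THC groups in place of vehicle groups 1 of 3 stayed among the 30 most alike for Pdyn and Oprm1, and with Spearman's rho 1 of 3 did so for Penk and Oprl1.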

How the data were processed

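Tissue punches of 5 brain regions were sequenced in 119 mouse libraries (directional polyA kit). Per the labels, reads were trimmed with cutadapt 2.9, aligned with STAR 2.7.3a to mm10 and counted with RSEM 1.3.1. The deposited values are expected counts per gene, not normalized, in 2 tables of 55291 genes (48 and 71 libraries). They were rounded to whole numbers before testing, and all member values were already whole. The annotation release and strand setting of counting were not given in the sources used here. edgeR 4.0.16 (filterByExpr, TMM, robust quasi-likelihood) in R 4.3.3 was fitted across all genes, with DESeq2 1.42.0 as an alternative. Self-tests on simulated counts preceded the fits. CPM used TMM factors over all libraries, and log2 CPM a prior count of 2. Lengths and sequences came from the GENCODE M21 annotation of GRCm38. The named genes were the 7 members, the 3 genes most like each, called genes of the pathway lists and, chosen after their values were seen, the called marker genes. Members and lists were chosen with earlier results of these data known. Within a region the p-values measure the spread between libraries of different mice, whereas tests between regions set libraries of the same mice against each other without a term for the mouse.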

Additional observations from a re-analysis of the deposited data

Results flagged for a closer look

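Of 140 groups of a member in 1 region, sex and treatment, 20 held a library whose gap to the next exceeded Dixon's 95% critical value, where chance flags about 1 in 20 groups. For Penk these were the PFC female vehicle library FTL_264 at 81.58 CPM (next 29.72), the PFC male vehicle library FTL_277 at 18.16 CPM, the Amy male vehicle library FTL_346 at 703.2 CPM (next 481.0), the Amy male THC library FTL_352 at 970.2 CPM (next 500.5) and the VTA male THC library FTL_376 at 39.01 CPM. Library FTL_346 had 1479 CPM of summed medium spiny neuron markers against 690.5 to 907.5 CPM in the rest of its group, and it was also the lowest for Oprl1 at 66.5 CPM (next 82.81). Library FTL_352 was also the highest of its group for Pdyn at 178.1 CPM (next 97.71). For Pnoc the DMS vehicle libraries FTL_285 at 5.276 CPM (next 0.3874) and FTL_301 at 6.561 CPM (next 2.169) stood out, and so did the PFC male vehicle library FTL_278 at 4.864 CPM. For Oprm1 the Amy female vehicle library FTL_338 was lowest at 1.107 CPM (next 6.198), with 1449 CPM of summed astrocyte markers against 2269 to 2515 CPM in the rest of its group. Other Oprm1 values were 2.099 CPM in FTL_267, 4.904 CPM in FTL_295, 1.561 CPM in FTL_304 and 7.304 CPM in FTL_327. The remaining values were 19.03, 22.35, 13.64 and 7.79 CPM for Oprd1 in FTL_281, FTL_314, FTL_317 and FTL_361, and 23.14 CPM for Oprk1 in FTL_273. No difference in THC effect between the sexes was past its threshold for any member.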

How the results depend on the processing

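No paired analysis was possible because the groups share no replicate numbers and the labels do not tie libraries of different regions to a mouse. No result changed direction under any alternative. In the female Amy, where 1 member was called, fitting all 4 Amy groups together gave 0, and leaving out 1 library at a time gave 0 to 1. In the female DMS, with 0 members called, DESeq2 called 1 (Pdyn). With a log2 threshold of 0.4 in place of 1 between regions, 7 members were called for the PFC against the Amy (37.5% of all genes), 7 for the PFC against the VTA (54.9%) and 7 for the NAc against the VTA (51.9%), with 4 each before, and 6 for the NAc against the Amy (24.9%), with 3 before. Without the libraries that stand apart, an alternative chosen after seeing the data, 14 pairs of members were related in place of 24, of which 11 were among the 24. Few counts limit Pnoc in the DMS (median 11.5 a library). Its change in males had a 95% interval of -2.32 to 1.49, and its vehicle libraries there ran from 0.338 to 6.56 CPM.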
